A study of Rattus norvegicus with 12 samples.

Results

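The response of the rat jejunum to oral antibiotics was measured across all of its genes, by tissue layer, epithelial lineage and metabolic pathway. Poly(A) RNA was sequenced from 3 jejunal libraries of Wistar Han rats given antibiotics and 3 of rats given saline, which the labels call wild type, so the comparison uses 6 of the 12 libraries of the series. All genes with a mean normalized count of at least 1 over these 6 libraries were taken, which were 19450 of the 21568 genes in the jejunal table. The treated rats received the antifungal drug amphotericin B at 0.2 g/L together with 4 antibacterial drugs, of which vancomycin stood at 10 g/L and metronidazole, neomycin sulfate and ampicillin each stood at 20 g/L. The mixture was given into the stomach at 5 mL/kg for 2 weeks, and the wild-type rats received normal saline in equal amount. All rats were kept in a specific-pathogen-free facility, and the labels do not say whether each library came from a separate rat, so p-values measure only the spread between these samples, which may be technical.

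The jejunum is the stretch of small intestine between duodenum and ileum, where most sugar, amino acids and fat are absorbed. Its epithelium renews itself from stem cells in crypts, which also hold Paneth cells that secrete defensins, and matures on villi into absorptive enterocytes with goblet, tuft and enteroendocrine cells among them. Below the epithelium lie fibroblasts, vessels and immune cells, and around them a coat of smooth muscle with the enteric nervous system, while gut bacteria alter bile acids and release fatty acids that the epithelium uses. In RNA from whole pieces of tissue, fewer cells of a type and less RNA per cell cannot be told apart.

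The 6 libraries were not alike in depth or make-up. Recovered reads ran from 15980618 to 16415356 in the antibiotics libraries and from 14592126 to 18322008 in wild type. Mitochondrially encoded genes took 38.7% to 64.8% of reads in the antibiotics libraries and 26.8% to 80.7% in wild type, which left 5738486 to 10062856 reads and 3510319 to 10684813 reads for all other genes. Wild-type library 3 had the fewest such reads, and of 11504 genes with a mean of at least 50 it held 152 at least 4-fold below every other library, against 34 in antibiotics library 3 and at most 9 in each of the remaining 4.

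Antibiotics library 3 was highest for several markers of the ileum, the last stretch of the small intestine. It was lowest for most markers of the upper small intestine. Of 10 ileal marker genes, 5 were highest in it and 1 was lowest. Of 15 markers of the upper small intestine, 10 were lowest in it and 1 was highest. Fabp6, the bile acid carrier of ileal enterocytes, had normalized counts of 119, 14.4 and 9108 in antibiotics libraries 1 to 3, against 79.9, 14.5 and 81.7 in the wild-type libraries. Antibiotics library 3 thus held 76.8 times as much as the next library. Fgf19, a hormone that ileal cells release when they take up bile acids, was at 45.3 in antibiotics library 3 and had no read in the other 5 libraries. Slc10a2, the ileal bile acid importer, was at 41.6 there and between 0 and 4.52 in the other libraries. In contrast, the hormone gene Gip of upper intestinal K cells was at 46.3, 190 and 0 in the antibiotics libraries, against 174, 343 and 191 in wild type. Lct, the milk sugar enzyme lactase, was at 868, 2661 and 53.5, against 1371, 3750.2 and 3396. Gata4, a transcription factor of the upper small intestine that is silent in the ileum, was at 210.2, 312 and 45.3, against 253, 1031 and 925. For all 3 genes antibiotics library 3 was the lowest, and antibiotics library 1 was the next lowest. The labels give this library as jejunum like the rest, so results that rest on it are given with and without it.

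The sequences just before 3 of these genes are shown because the genes separate antibiotics library 3 from the rest of the jejunum. They are the 250 bases ahead of each gene's start in RefSeq, build GRCr8, 5′ to 3′ on the gene's strand. They lie at chr10:28569728-28569977 on the minus strand for Fabp6, chr10:81464820-81465069 on the plus strand for Gip and chr13:42376873-42377122 on the minus strand for Lct. Capitals mark GATAA on either strand, the core letters that GATA factors such as Gata4 read, and the Fabp6 window is in lower case throughout because it holds none.
Fabp6: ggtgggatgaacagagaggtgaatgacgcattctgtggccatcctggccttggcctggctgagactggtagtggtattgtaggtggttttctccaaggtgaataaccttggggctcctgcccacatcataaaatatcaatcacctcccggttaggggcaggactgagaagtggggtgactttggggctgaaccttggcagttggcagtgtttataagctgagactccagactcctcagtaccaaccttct
Gip: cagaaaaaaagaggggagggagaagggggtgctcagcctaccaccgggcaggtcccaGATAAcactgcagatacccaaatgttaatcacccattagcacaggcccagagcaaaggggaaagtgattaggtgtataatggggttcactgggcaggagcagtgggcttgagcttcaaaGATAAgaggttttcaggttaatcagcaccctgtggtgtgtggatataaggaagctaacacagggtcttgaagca
Lct: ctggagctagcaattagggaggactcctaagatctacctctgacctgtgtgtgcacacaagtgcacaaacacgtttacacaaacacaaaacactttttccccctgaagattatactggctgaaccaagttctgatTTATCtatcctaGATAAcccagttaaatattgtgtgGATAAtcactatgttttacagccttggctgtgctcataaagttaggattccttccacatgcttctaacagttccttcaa
GATAA occurred 2 times in the Gip window and 3 times in the Lct window, both strands counted. Of 33469 promoters of the same length, 23.5% held it at least once, and 6.18% held the longer GATAAG, which overlaps it. A match is a description of letters, not a shown site or a cause, and its absence says only that these letters are not in the window.

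**Figure D1:**
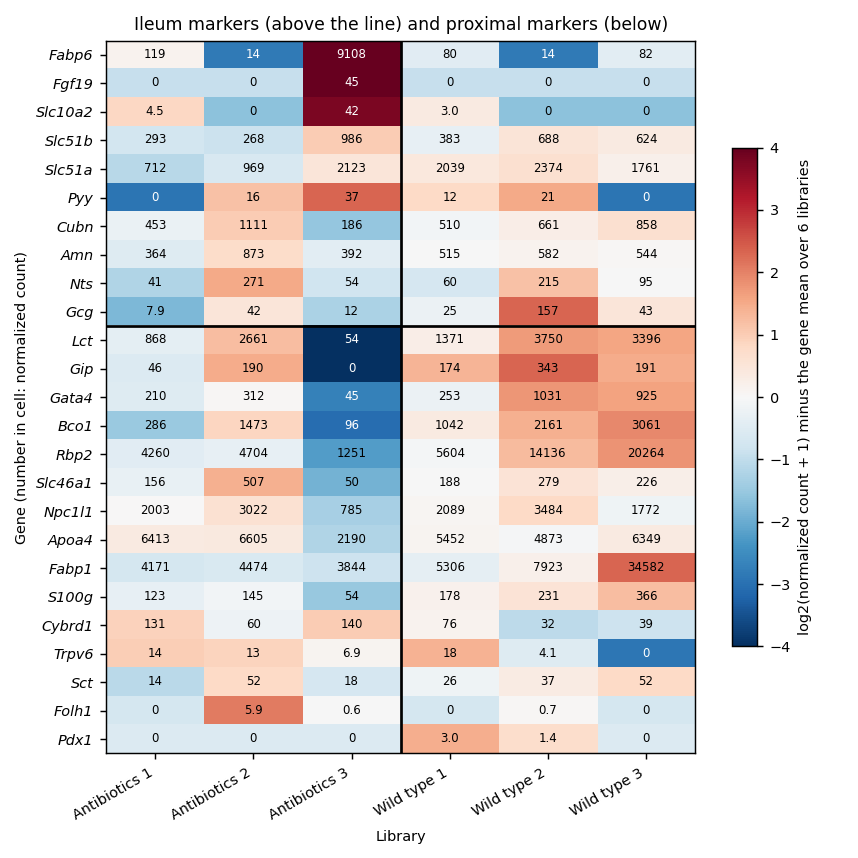
Markers of the ileum (above the line) and of the upper small intestine (below), 1 column per library with antibiotics libraries on the left, coloured by log2 of the normalized count plus 1 minus the gene's mean over 6 libraries, with the normalized count in each cell. Antibiotics library 3 stands alone with 9108 for Fabp6 and 45.3 for Fgf19, and has 0 for Gip and 53.5 for Lct.

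Across all genes, 249 differed with antibiotics (limma, adjusted p under 0.05), which is 1.28% of those tested. Of these, 148 rose (0.761%) and 101 fell (0.519%). All 249 separated the 3 antibiotics libraries from the 3 wild-type libraries, as did 27.9% of all genes tested, and 52.9% of all genes had a log2 fold change above 0. Scaling by library totals instead of the deposited factors moved the median log2 fold change of all genes from 0.06 to 0.50 and the calls to 61 higher and 4 lower, and scaling by totals outside mitochondrial genes moved them to 0.21 and to 268 and 74. The number of calls rested on single libraries: it was 1, 3 and 1 without antibiotics library 1, 2 or 3, and 1902, 108 and 62 without wild-type library 1, 2 or 3. Leaving out antibiotics library 3 reduced the groups to 2 against 3, and Zp2 alone passed (0.00516% of genes tested, lower with antibiotics). The median ratio of the new to the old log2 fold change of the 249 genes was 0.966. Because these genes separate all 3 libraries of each group, leaving 1 out could not turn their direction. By an unadjusted p under 0.05, 22.2% of all genes passed by limma, and by adjusted p 1.07% passed by edgeR and 9.6% by DESeq2.

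Fold changes followed gene length. Among genes with a mean of at least 50, the median log2 fold change climbed through the 10 length classes, from −0.71 in the shortest genes (42 to 543 bases) to 0.42 in the longest (4926 to 29464 bases). In the shortest class the median deviation from each gene's own mean was −0.30, −0.25 and −0.58 in the antibiotics libraries and 0.22, 0.54 and 0.45 in wild type. In the longest class it was 0.22, 0.16 and 0.33 in the antibiotics libraries and −0.08, −0.20 and −0.32 in wild type. Thus each of the 6 libraries had its own slope, steepest in antibiotics library 3 and flattest in wild-type library 1, and the groups did not overlap at either end. Rises were mostly long genes, with 56 of 148 in the longest class and 1 in the shortest, and falls were mostly short, with 1 of 101 in the longest and 22 in the shortest. The median length was 4108.5 bases for genes that rose and 1075 bases for genes that fell, against 2061.5 bases for all genes tested. What set these slopes was not tested.

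**Figure D2:**
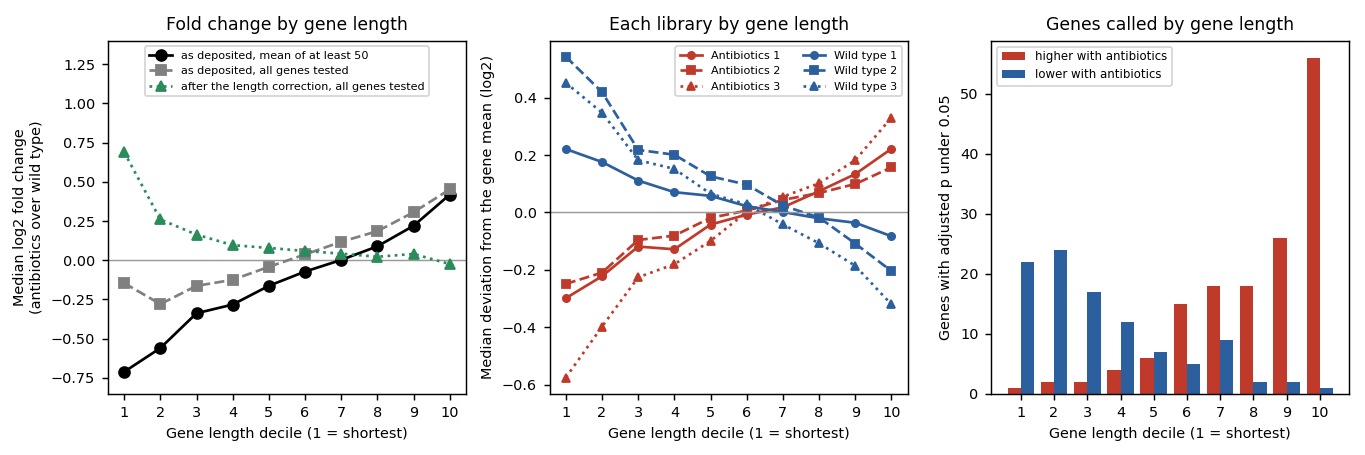
Median log2 fold change (left), median deviation of each library (middle, genes with a mean of at least 50) and number of genes past the limma threshold (right), each against gene length in 10 classes. In the left panel the deposited values of genes with a mean of at least 50 climb from −0.71 to 0.42. Over all genes tested they run from −0.15 in the shortest class to 0.45 in the longest, and after the correction from 0.69 to −0.02.

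To allow for length, each library's trend on log2 gene length was subtracted, and the groups were tested again. Of the 249 genes, 24 passed (0.123% of genes tested), 15 higher (0.0771%) and 9 lower (0.0463%), and no gene passed that had not passed before. The median ratio of corrected to deposited log2 fold changes over the 249 genes was 0.847. Allowing for length and leaving out antibiotics library 3 together, Zp2 alone, again lower, passed adjustment (0.00516%). After the correction, 20.5% of all genes had an unadjusted p under 0.05. Only genes with a mean of 50 or more set the trend. In the shortest class of all genes tested it moved the median from −0.15 to 0.69, so weakly expressed short genes are less well served by it.

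The 15 rises that passed both with and without the length correction included 2 genes of the smooth muscle list, Myocd and Kcnmb1. Myocd, a coactivator that switches on smooth muscle genes, had 323, 219 and 426 normalized counts in the antibiotics libraries, against 30.3, 48.3 and 21.5 in wild type. Its log2 fold change was 3.26 (SE 0.43, limma adjusted p = 0.0147), and 2.92 with length allowed for (adjusted p = 0.0302). Kcnmb1, a subunit of the calcium-activated potassium channel of smooth muscle, had 950.3, 905 and 825, against 197, 123 and 60.2. Both genes were several-fold higher in every antibiotics library than in any wild-type library. Pygm, the glycogen phosphorylase of muscle, had 955, 789 and 910.0, against 290.2, 123 and 138 (log2 fold change 2.37). Fbxo32, a ubiquitin ligase of muscle, had 939, 684 and 1229, against 195, 191 and 169.9 (log2 fold change 2.32). Cap2, an actin-binding protein of muscle, had 758, 557 and 776, against 251, 117 and 129 (log2 fold change 2.14). In the last 3 genes the wild-type libraries again all lay below the antibiotics libraries.

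Among the other genes that passed both tests, the calcium channel gene Cacna1e had 353, 223 and 322 normalized counts in the antibiotics libraries, against 41.5, 40.0 and 32.3 in wild type (log2 fold change 2.93, limma adjusted p = 0.0108). Cacnb2, a channel subunit, had 439.6, 280.4 and 269, against 80.9, 35.9 and 47.3 (log2 fold change 2.61). Rims1, a protein of the presynaptic release site, had 845, 699.6 and 783, against 174, 115 and 75.3 (log2 fold change 2.75). These 3 genes did not overlap between groups and passed after the length correction (adjusted p = 0.0302, 0.0379 and 0.0208). The phosphatase gene Ppm1l had 5525, 4587 and 4655, against 1115, 1011 and 669 (log2 fold change 2.43, and 1.84 with length allowed for). Tent5b, an enzyme that lengthens poly(A) tails, had 279, 160.1 and 179, against 18.2, 13.1 and 15.1 (log2 fold change 3.62). The other rises that passed and met the rule for naming genes were Lgi2, Mab21l2, Mfhas1 and Dcbld2, with log2 fold changes of 2.81, 2.19, 2.73 and 2.58.

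Falls that passed both tests included regulators of metabolism. Cebpa, a transcription factor of fat, liver and gut epithelium, had 602, 637 and 382 normalized counts in the antibiotics libraries, against 2913, 2513 and 2787 in wild type. Its log2 fold change was −2.37 (SE 0.27, limma adjusted p = 0.0108), and −2.43 with length allowed for (adjusted p = 0.0208). Srebf1, the transcription factor that drives fatty acid synthesis, had 388, 385 and 299, against 1983, 1121 and 1032 (log2 fold change −1.89, and −2.17 with length allowed for). Neither gene overlapped between groups, and both were lowest in antibiotics library 3. Ces2g, a carboxylesterase that cleaves esters, had 40.7, 44.0 and 32.7, against 185, 341 and 219 (log2 fold change −2.60). Fkbp2, a protein-folding enzyme of the endoplasmic reticulum, had 93.8, 112 and 78.1, against 633, 854 and 557 (log2 fold change −2.83). Taf15, an RNA-binding protein, had 26.0, 51.7 and 20.2, against 287, 357 and 467 (log2 fold change −3.55). These groups did not overlap either, and the same held for Ngef, a nucleotide exchange factor, with a log2 fold change of −2.01. Ybx1-ps3 and Anp32a also fell (−2.49 and −2.53), but the first is named as a pseudogene and the second lies on an unplaced contig, so reads shared with a copy make their counts uncertain. Zp2, an egg coat glycoprotein, had no read in any antibiotics library, against 156, 227 and 234 in wild type, and was the only gene to pass with both allowances together (limma adjusted p = 0.00497 as deposited and 0.0180 with both).

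**Figure D3:**
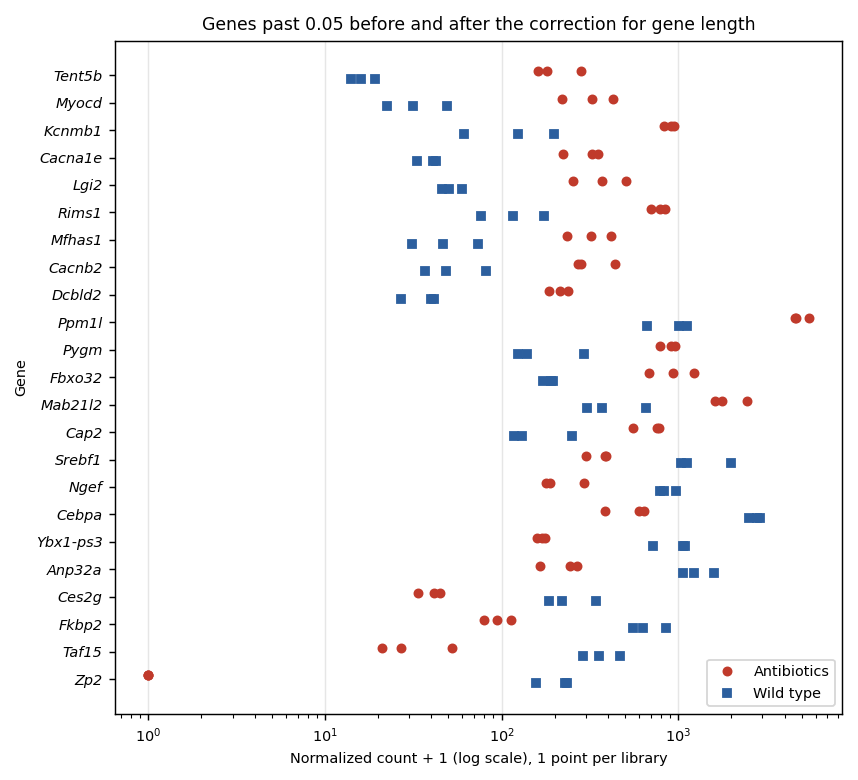
Normalized count plus 1 (log axis) in each library for the 23 named genes past an adjusted p of 0.05 before and after the correction for gene length, 1 point per library, antibiotics as red circles and wild type as blue squares. In every gene the groups lie apart, with Myocd at 219 to 426 with antibiotics and 21.5 to 48.3 in wild type, and Cebpa at 382 to 637 and 2513 to 2913.

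Smooth muscle markers were higher with antibiotics, and 6 of 17 rose, against 0.761% of all genes. Lists of marker genes are described by the median log2 fold change of their members, beside 0.06 for all genes tested, 0.11 with length allowed for, 0.06 without antibiotics library 3 and 0.11 with both. All 17 smooth muscle markers were above 0, with medians of 1.66, 1.39, 1.65 and 1.33 in these 4 fits. Of the 17, 2 also passed after the length correction (Myocd and Kcnmb1), and 11 did not overlap between groups, against 16.6% of all genes with every antibiotics library above every wild-type library. Synpo2, an actin-bundling protein of muscle, had 2453, 1999.8 and 3391 normalized counts in the antibiotics libraries, against 827, 536 and 209 in wild type (log2 fold change 2.49, limma adjusted p = 0.0363). Tpm1, a tropomyosin, had 31060.2, 31184 and 33584, against 16423, 8292 and 7614 (log2 fold change 1.66, adjusted p = 0.0484). In both, wild-type library 1 was the highest of its group and nearest to the antibiotics libraries. Casq2 and Lmod1, muscle proteins of calcium storage and of thin filaments, also rose (2.83 and 1.69, adjusted p = 0.0363 and 0.0375).

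The smooth muscle list as a whole showed the same order of libraries. Its median deviation was 0.79, 0.82 and 0.81 in the antibiotics libraries and 0.08, −1.09 and −1.32 in wild type. Antibiotics libraries were nearly equal, while wild-type library 1 lay well above the other wild-type libraries. The summed count of smooth muscle markers was 7.24, 6.06 and 6.13 times that of general epithelial markers in the antibiotics libraries and 4.60, 0.810 and 0.845 times in wild type. This ratio thus differed more between wild-type library 1 and the other wild-type libraries than between it and the antibiotics libraries, and its part in the results on other lists was not tested.

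Nerve, pacemaker and stromal lists had medians above 0, with few single genes past the test. Of 19 enteric neuron markers, 18 were above 0 (median 1.07, and 0.94 under both allowances). By limma 0 of them passed, though 10 had an unadjusted p under 0.05, against 22.2% of all genes, and edgeR called 0 and DESeq2 5. The list's deviations were 0.58, 0.29 and 0.68 in the antibiotics libraries and 0.36, −1.07 and −0.76 in wild type, so wild-type library 1 lay above antibiotics library 2. Ret, the receptor that guides the growth of enteric neurons, had 524, 557 and 673 normalized counts in the antibiotics libraries, against 315, 157 and 114 in wild type (log2 fold change 1.70, limma adjusted p = 0.0509). The 3 pacemaker markers (interstitial cells of Cajal) had a median of 1.34, and 1.05 under both allowances. Pericyte markers had medians of 1.27 and 0.71, with Abcc9 and Rgs5, both markers of these contractile vessel cells, past the test (log2 fold changes 1.76 and 2.19, adjusted p = 0.0363 for each). Of the 6 pericyte markers, 4 were above and 2 below 0, and 0 passed after the length correction. Markers of fibroblasts had medians of 0.90 and 0.81, with 10 of 11 above 0. By limma 0 of the 11 passed, with 6 at an unadjusted p under 0.05, against 22.2% of all genes, 0 by edgeR and 2 by DESeq2. Of 50 collagens and laminins, 45 were above 0, with medians of 0.94 and 0.45. Col12a1, a collagen that decorates fibrils, was the one to rise (1035, 934 and 1390.5 with antibiotics, against 543, 239 and 267 in wild type, adjusted p = 0.0398), and its gene is long, with a log2 fold change of 1.76 that became 1.04 when length was allowed for. Fibroblast and collagen lists also overlapped between groups, with wild-type library 1 (0.34 and 0.33) above antibiotics library 2 (0.32 and 0.25). Without wild-type library 2 the medians were 0.68 for enteric neurons, 0.50 for fibroblasts and 0.61 for collagens and laminins.

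Signals that stromal cells send to crypts included 1 gene that rose. Grem1, a secreted blocker of bone morphogenetic proteins made by cells around the crypt base, had 2385, 1646 and 2599 normalized counts in the antibiotics libraries, against 905, 556 and 333 in wild type. Its log2 fold change was 1.97 (limma adjusted p = 0.0363), and 1.76 with length allowed for (adjusted p = 0.0683). The 10 genes of that list had a median of 0.76, with 7 above and 3 below 0, and a median of 0.45 under both allowances. Vessels split: lymphatic endothelial markers had medians of 0.74 and 0.55, with all 6 above 0 as deposited, and blood endothelial markers had −0.02 and −0.38 and turned to 0.48 under scaling by library totals. The lymphatic list overlapped between groups and had a median of 0.49 without wild-type library 2. The lymphatic marker Lyve1 had 410.2, 394 and 314 with antibiotics, against 336, 98.0 and 148 in wild type, and these groups overlapped.

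Adipocyte markers had medians below 0. All 11 were below 0, with medians of −2.10 as deposited, −2.01 with length allowed for, −1.86 without antibiotics library 3 and −1.66 with both. By limma 0 passed, with 9 at an unadjusted p under 0.05, against 22.2% of all genes, 0 by edgeR and 10 by DESeq2. Of the 11, 4 did not overlap between groups, against 11.3% of all genes with every antibiotics library below every wild-type library. Fabp4, the fatty acid carrier of fat cells, had 1706, 474 and 841 normalized counts in the antibiotics libraries, against 13773, 2214 and 18286 in wild type. Lep, the hormone leptin, had 38.4, 154 and 15.7, against 1714, 183 and 611. For both, wild-type library 2 was by far the lowest of its group. The list's median deviation was −0.43, −1.10 and −1.68 in the antibiotics libraries and 2.06, −0.46 and 1.64 in wild type, so wild-type library 2 lay inside the antibiotics range. How much fat was attached to each piece is not in the labels.

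General epithelial markers had medians below 0. All 18 were below 0, with medians of −0.78, −0.76, −0.86 and −0.83 in the 4 fits. By limma 0 passed, with 5 at an unadjusted p under 0.05, a share near the 22.2% of all genes, 0 by edgeR and 3 by DESeq2. Cdx2, the transcription factor of intestinal identity, had 1161, 2030.3 and 1036 normalized counts in the antibiotics libraries, against 2791, 4264 and 3181 in wild type (log2 fold change −1.32, adjusted p = 0.063). Krt18, a keratin of simple epithelia, had 205, 368 and 376, against 514, 1526 and 1269 (log2 fold change −1.71, adjusted p = 0.0638). Neither gene overlapped between groups. Over the whole list the deviations were −0.70, −0.31 and −0.31 in the antibiotics libraries and −0.35, 1.04 and 0.73 in wild type, so wild-type library 1 lay within the antibiotics range.

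Markers of dividing cells had medians below 0, and wild-type library 2 stood above all others. Of 24 genes of mitosis, 23 were below 0, with medians of −1.04 and −0.92 under both allowances, and −0.46 without wild-type library 2. By limma 0 of the 24 passed, with 5 at an unadjusted p under 0.05, which is near the share of all genes, 0 by edgeR and 3 by DESeq2. Deviations were −0.44, −0.28 and −0.84 in the antibiotics libraries and −0.04, 1.75 and −0.10 in wild type. Birc5, an inhibitor of cell death and part of the dividing chromosome's passenger complex, had 18.1, 44.0 and 23.3 normalized counts in the antibiotics libraries, against 84.9, 342 and 144 in wild type (log2 fold change −2.56, limma adjusted p = 0.0544). These groups did not overlap, yet wild-type library 2 was the highest by far. The 18 genes of DNA replication had medians of −0.69 and −0.45, and −0.35 without wild-type library 2. Of these 0 passed by limma, with 6 at an unadjusted p under 0.05, against 22.2% of all genes, 0 by edgeR and 3 by DESeq2. Antibiotics library 2 (−0.13) lay above wild-type library 3 (−0.15) for these replication genes. Their member Mcm6, part of the replicative helicase, had 334, 322 and 193, against 632, 712 and 465 (log2 fold change −1.11, adjusted p = 0.0802).

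Stem cell markers lay on both sides of 0. Of 14, 5 were above and 9 below 0, with a median of −0.83, and −0.45 without wild-type library 2. Fully above the wild-type libraries lay 4, against 16.6% of all genes, and fully below them 4, against 11.3%. Smoc2, a secreted protein of crypt stem cells that stromal cells also make, rose, with 1933, 1675 and 1453 normalized counts in the antibiotics libraries, against 716, 665 and 325 in wild type (log2 fold change 1.64, limma adjusted p = 0.0412). Lrig1, a brake on growth factor receptors in the crypt, had 698, 772 and 590.1, against 227, 293 and 68.8 (log2 fold change 2.03, adjusted p = 0.0569). On the other side, Ascl2, a transcription factor that maintains stem cells, had 28.2, 38.1 and 13.9, against 104, 215 and 98.9 (log2 fold change −2.35, adjusted p = 0.0544). Sox9, a factor of the crypt base, had 24.9, 44.9 and 38.4, against 65.7, 213 and 176 (log2 fold change −1.92, adjusted p = 0.0782). Each of these 4 genes separated the groups, 2 in each direction.

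Paneth, goblet and enteroendocrine lists lay below 0 with wide spread, while the tuft cell list did not keep its sign under every alternative. Paneth cell markers had medians of −2.46 as deposited and −1.40 under both allowances, with 9 of 10 below 0. By limma 0 passed, with 7 at an unadjusted p under 0.05, against 22.2% of all genes, 0 by edgeR and 3 by DESeq2. After the length correction 3 had an unadjusted p under 0.05, against 20.5% of all genes. Without wild-type library 2 the median was −1.58. Deviations of the Paneth list were −1.61, 0.17 and −1.93 in the antibiotics libraries and 0.40, 2.85 and 0.02 in wild type. Antibiotics library 2 thus lay above wild-type library 3, and wild-type library 2 stood above all others. The defensin gene Defa24 had 1968, 10114 and 1435 normalized counts in the antibiotics libraries, against 17317, 54511 and 6917 in wild type, and these overlapped. Defensin genes are close copies of each other, so reads may be split between them. Goblet cell markers had medians of −1.06 and −1.08, with 12 of 14 below 0, and overlapped between groups. Clca1, a secreted mucus protease, had 512, 1088 and 618, against 1298, 6656 and 1441 (log2 fold change −1.72, adjusted p = 0.129). Enteroendocrine markers had medians of −0.78 and −0.35, with 11 of 16 below 0. Of these 16, 1 had an unadjusted p under 0.05 by limma, and edgeR and DESeq2 called 0. For this list antibiotics library 2 (0.40) lay above wild-type libraries 1 and 3 (−0.20 and 0.27). Tuft cell markers had medians of −0.06 and −0.25, the first turning to 0.43 under scaling by library totals.

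The surface of absorptive cells gave smaller medians. Structural genes of the brush border, the fringe of microvilli, had medians of −0.48 and −0.72 under both allowances, but 0.02 under scaling by library totals. Brush border hydrolases, which finish digestion, had medians of −0.85 and −0.92, with 13 of 19 below 0, and −0.42 without antibiotics library 1 or −0.52 without wild-type library 2. The 1 that passed had the opposite sign. Ggt1, which splits glutathione at the cell surface, had 719, 1040.2 and 799 normalized counts in the antibiotics libraries, against 380.1, 319.6 and 189 in wild type (log2 fold change 1.56, limma adjusted p = 0.0412). With length allowed for, its log2 fold change was 1.80 (adjusted p = 0.0594). Si, the sucrose-splitting enzyme, had 1023, 1019.8 and 942, against 921, 4163 and 5880.1, so wild-type library 1 lay below all antibiotics libraries. Tight junction genes had medians of −0.50 and −0.64, but −0.18 without wild-type library 2. Cldn15, a claudin that passes sodium in the small intestine, had 328, 743 and 193, against 997, 3089.7 and 1133 (log2 fold change −2.07, adjusted p = 0.0729).

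Defence genes of the epithelium had medians of 0.23 and 0.57, and antibiotics library 3 alone carried 2 of them. Duox2, the oxidase that makes hydrogen peroxide at the gut surface, had 46.3, 24.6 and 771 normalized counts in the antibiotics libraries, against 24.3, 26.2 and 19.4 in wild type. Duoxa2, the factor that matures it, had 21.5, 6.78 and 318, against 16.2, 4.14 and 17.2. Without antibiotics library 3 the log2 fold changes were 0.53 and 0.17, against 2.02 and 1.71 with it. Pigr, the receptor that carries antibodies into the gut lumen, had 734, 976 and 612, against 948, 6232 and 3041 (log2 fold change −1.78, adjusted p = 0.115), and its groups overlapped at wild-type library 1. Reg3g, an antibacterial lectin, had 1323, 418 and 1067, against 696, 237 and 441, and also overlapped.

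**Figure D4:**
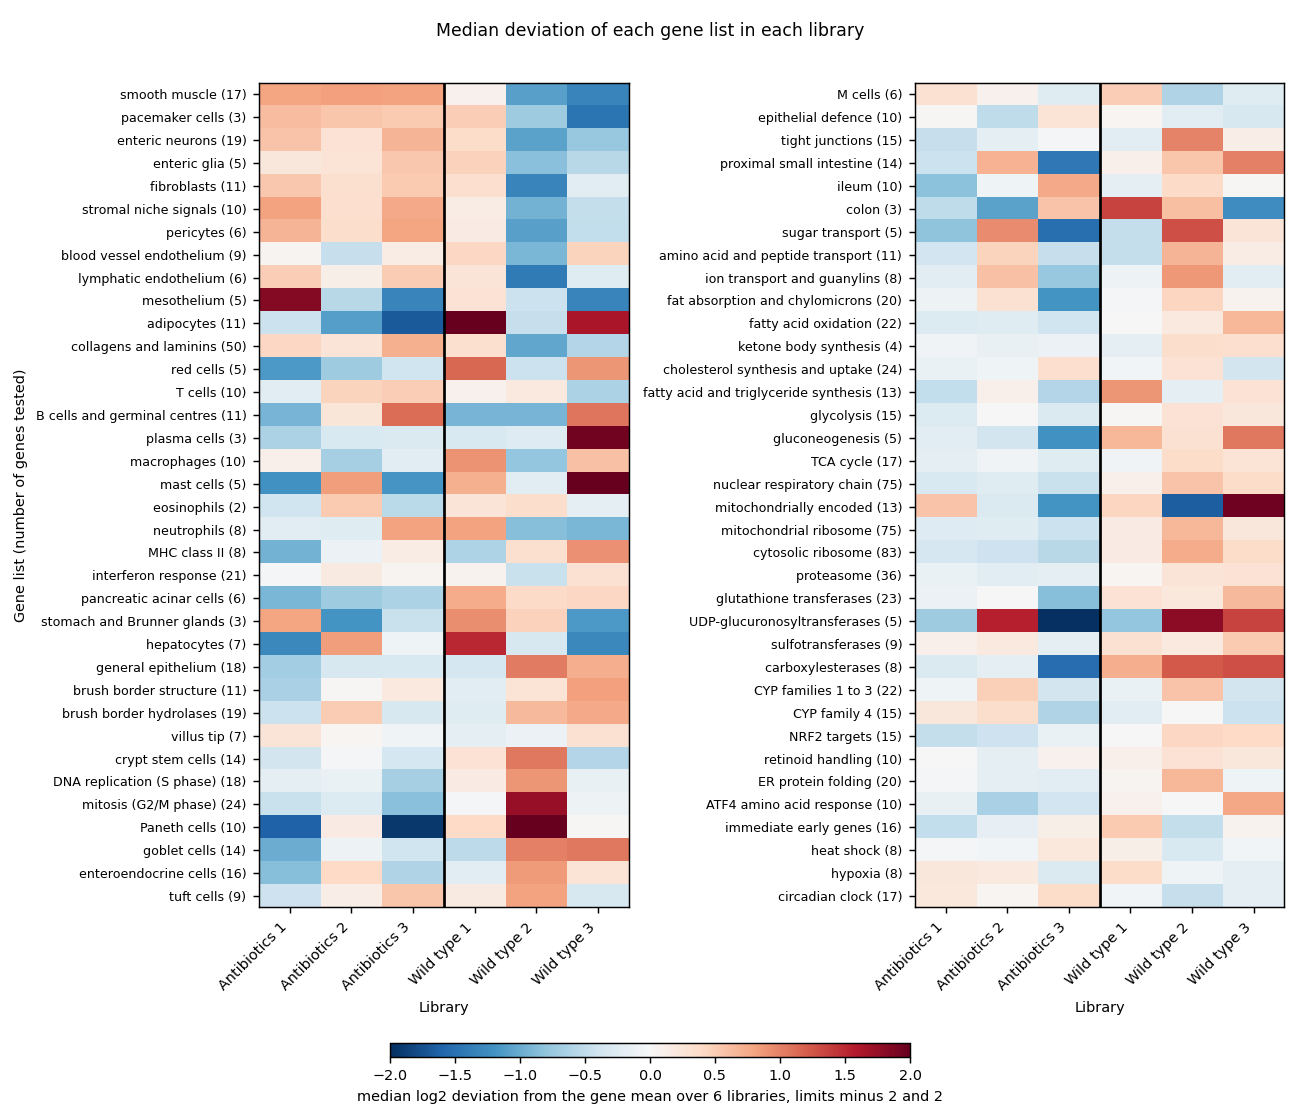
Median log2 deviation from the gene mean for 72 gene lists (rows, with the number of genes tested) in each library (columns, antibiotics libraries left of the line), with colours that stop at the ends of the scale. Smooth muscle is at 0.79, 0.82 and 0.81 with antibiotics, while wild-type library 1 (0.08) lies nearer to these than wild-type libraries 2 and 3 (−1.09 and −1.32), and Paneth markers reach 2.85 in wild-type library 2.

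Among lists of nutrient uptake, the medians of fat absorption and sugar transport rested largely on antibiotics library 3. Genes of fat absorption and chylomicron assembly, the route by which dietary fat enters lymph, had a median of −0.54 with 17 of 20 below 0, and 0.01 with 10 of 20 below 0 once antibiotics library 3 was left out. Their deviations were −0.10, 0.30 and −1.19 in the antibiotics libraries and −0.02, 0.44 and 0.07 in wild type. Sugar transporters had medians of −1.16 with antibiotics library 3, −0.36 without it and −0.69 without wild-type library 2. Slc2a2, the sugar exporter of enterocytes, had 280.2, 1315 and 95.1 normalized counts in the antibiotics libraries, against 411, 1399.9 and 684 in wild type. Its log2 fold change was −1.16 with antibiotics library 3 and −0.27 without it. Amino acid and peptide transporters had medians of −0.45 and −0.19 with and without antibiotics library 3, and ion transport genes −0.36 and −0.06. Without wild-type library 2 these medians were −0.07 and −0.05, and scaling by library totals turned them to 0.05 and 0.14. Dgat2, which makes triglyceride, had 1016, 1592 and 418, against 3797, 1789 and 2947 (log2 fold change −1.63, and −1.09 without antibiotics library 3, limma adjusted p = 0.0856 with it). Its groups did not overlap.

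Medians for families of short genes, which make protein and energy, shrank in size with the length correction. Family members with a mean of 50 or more were among the genes that set the trend. The shortest class held 296 genes with such a mean. The correction may thus take away part of the families' own change, so dependence on gene length cannot be told apart from it. Of 83 cytosolic ribosomal protein genes, 76 were below 0 and 10 fell, against 0.519% of all genes, while 53 lay fully below wild type, against 11.3%. Their median log2 fold change was −0.85 as deposited, −0.32 with length allowed for, and −0.29 under both allowances. After the correction 0 passed by limma, with 23 at an unadjusted p under 0.05, against 20.5% of all genes, while on values as deposited edgeR called 9 and DESeq2 42. Rpl13, a protein of the large subunit, had 2619, 3001 and 2421 normalized counts in the antibiotics libraries, against 10864, 12804 and 10218 in wild type (log2 fold change −2.07, limma adjusted p = 0.0108). With length allowed for it was −1.46 (adjusted p = 0.0554). Many ribosomal protein genes have processed copies, so their counts are uncertain.

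Medians for the respiratory chain and for mitochondrial ribosomes also shrank in size with the length correction. Of 75 nuclear genes of the respiratory chain, 67 were below 0 and 5 fell, against 0.519% of all genes. Their medians were −0.63 as deposited and −0.16 with length allowed for. After the correction 0 passed by limma, with 13 at an unadjusted p under 0.05, against 20.5% of all genes. Under both allowances 32 were above and 43 below 0, with a median of −0.10. Uqcr11, a subunit of complex III, had 828, 872 and 605 normalized counts in the antibiotics libraries, against 2253, 3155 and 2463 in wild type (log2 fold change −1.77, limma adjusted p = 0.0226). With length allowed for it was −1.08 (adjusted p = 0.0743). Of 75 mitochondrial ribosomal protein genes, 70 were below 0 and 4 fell, with medians of −0.66 and −0.35. After the length correction 0 passed by limma, with 21 at an unadjusted p under 0.05. Mrps26, of the small subunit, had 128, 151 and 130.4, against 349, 699.9 and 531 (log2 fold change −1.89, adjusted p = 0.034). Of 36 proteasome genes, 2 fell, against 0.519% of all genes, and 0 passed after the length correction. The 2 were Psmd8 and the immunoproteasome subunit gene Psmb9 (log2 fold changes −1.18 and −2.00, limma adjusted p = 0.0402 and 0.0485). The proteasome list had medians of −0.37 and −0.12, and 0.13 under scaling by library totals. Messages encoded by mitochondria had a median of −0.51, and 0.33 under both allowances, with deviations of 0.57, −0.28 and −1.20 in the antibiotics libraries and 0.43, −1.65 and 1.94 in wild type, so the groups overlapped.

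Lists of fuel metabolism lay below 0. Genes of fatty acid oxidation had medians of −0.47, −0.34, −0.37 and −0.37 in the 4 fits, with 19 of 22 below 0, but 0.03 under scaling by library totals, where all genes stood at 0.50. Acads, which oxidises short-chain fatty acids, fell, with 379, 424 and 368 normalized counts in the antibiotics libraries, against 756, 1065 and 1138 in wild type (log2 fold change −1.32, limma adjusted p = 0.04). Acaa2, a thiolase of the same pathway, had 1335, 1304 and 869, against 2474, 2485 and 3441 (log2 fold change −1.27, adjusted p = 0.0532). Both genes separated the groups. Gluconeogenic genes had medians of −1.41, −1.17, −1.35 and −1.13, with all 5 below 0 as deposited. Pc, which makes oxaloacetate from pyruvate, had 391, 392 and 254, against 2175, 411 and 1232, so wild-type library 2 lay just above the antibiotics libraries. Glycolysis had medians of −0.39 and −0.26, and the citric acid cycle −0.32 and −0.16, and these turned to 0.11 and 0.18 under scaling by library totals.

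Fatty acid and triglyceride synthesis held 2 genes that fell, of 13 tested, against 0.519% of all genes. Besides Srebf1, this was Agpat2, which adds the second fatty acid to glycerol, with 290.4, 186 and 344 normalized counts in the antibiotics libraries, against 1006, 738 and 1366 in wild type (log2 fold change −1.92, limma adjusted p = 0.034). The list had medians of −0.54, −1.18, −0.20 and −0.64 in the 4 fits. Thrsp, an inducer of lipid synthesis abundant in fat cells, had 654, 805 and 176, against 6235, 1000.2 and 4033 (log2 fold change −2.69, adjusted p = 0.0949). Wild-type library 2 was the lowest wild-type library for Thrsp, as it was for the adipocyte markers (deviation −0.46), and the part of attached fat in these falls was not tested. Cholesterol synthesis and uptake stayed near all genes, with medians of 0.03 and −0.17.

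Enzymes that handle drugs and other foreign compounds included 3 genes that fell, Mgst1, Ces2g and Ephx1. Glutathione transferases had a median of −0.85 with 20 of 23 below 0, and −0.16 under both allowances with 12 of 23 below 0. Mgst1, a membrane-bound member, fell, with 1124, 735 and 388 normalized counts in the antibiotics libraries, against 5620.3, 3357 and 4267 in wild type (log2 fold change −2.66, limma adjusted p = 0.0224). Its corrected log2 fold change was −2.22 (adjusted p = 0.056). Carboxylesterases had medians of −1.43 and −1.01, with 7 of 8 below 0, and Ces2g past both tests. UDP-glucuronosyltransferases had medians of −1.60 and −0.56 with and without antibiotics library 3. The family's median deviation was −0.71, 1.55 and −3.34 in the antibiotics libraries and −0.77, 1.78 and 1.35 in wild type. Ephx1, the epoxide hydrolase counted among NRF2 targets, had 202, 161 and 196, against 449.9, 420.4 and 553 (log2 fold change −1.34, adjusted p = 0.0402).

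Cytochrome P450 families 1 to 3 held 1 gene that rose and 1 that fell. Of 22, 11 were above and 11 below 0. Cyp1b1, which oxidises steroids, rose, with 2052, 1510.3 and 1681 normalized counts in the antibiotics libraries, against 739, 312 and 166 in wild type (log2 fold change 2.36, limma adjusted p = 0.0392). Cyp2e1, an ethanol-oxidising member, fell, with 20.3, 5.08 and 15.7, against 385, 100.1 and 88.2 (log2 fold change −3.55, adjusted p = 0.0402). Cyp1a1, the main target of the aryl hydrocarbon receptor, had 30.5, 449.8 and 71.8, against 938, 1161 and 449.5 (log2 fold change −2.96, adjusted p = 0.106). Antibiotics library 2 matched wild-type library 3 for Cyp1a1, so its groups touched.

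Blood and immune lists gave single changes. Red cell genes had medians of −1.41 and −0.96 under both allowances, with all 5 below 0. By limma 0 passed, with 3 at an unadjusted p under 0.05, against 22.2% of all genes, 0 by edgeR and 3 by DESeq2. After the length correction 1 had an unadjusted p under 0.05, against 20.5% of all genes. Hba-a1, a haemoglobin chain, had 1033, 1539 and 1738 normalized counts in the antibiotics libraries, against 5698, 1691 and 5419.9 in wild type, and overlapped at wild-type library 2. Mpo, the peroxidase of neutrophil granules, fell, with 24.9, 15.2 and 18.3, against 351, 72.5 and 194 (log2 fold change −3.09, adjusted p = 0.0375), while the list of 8 neutrophil genes had a median of 0.02, and of −1.20 among members with a mean of at least 10. Genes of MHC class II, which show antigens to T cells, had medians of −0.64 and −0.76, with 7 of 8 below 0. That median was −0.31 without antibiotics library 1, −0.29 without wild-type library 3 and −0.14 under scaling by library totals, and the groups overlapped. Cela1, an elastase listed with pancreatic acinar genes, fell, with 46.3, 61.8 and 69.3, against 199, 369 and 163 (log2 fold change −1.95, adjusted p = 0.0449). Macrophage markers had a median of −0.20, which turned to 0.30 under scaling by library totals, and T cell markers 0.35.

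Of cell state lists, genes of the ATF4 response to amino acid shortage had medians of −0.69 and −0.52, and −0.42 without wild-type library 3. Phgdh, the first enzyme of serine synthesis, had 165, 75.4 and 72.4 normalized counts in the antibiotics libraries, against 845, 166 and 641 in wild type (log2 fold change −2.20, limma adjusted p = 0.0714). Psat1, the next enzyme, had 189, 117 and 96.4, against 660.2, 238 and 387 (log2 fold change −1.61, adjusted p = 0.0701). Neither overlapped between groups. Circadian clock genes had medians of 0.31 and 0.10, and Nr1d1, a repressor in that clock, had 441, 791 and 892, against 434, 156 and 239 (log2 fold change 1.42, adjusted p = 0.0851). Heat shock (0.09) and hypoxia genes (−0.05) lay near all genes tested.

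Of the 72 lists, 63 kept the sign of their median as deposited, with length allowed for, without antibiotics library 3 and under both allowances, 19 above and 44 below 0. Over all 18 alternatives, among them each library left out in turn, 41 kept their sign, 12 above and 29 below 0, and 31 did not. A median of at least 0.5 in size with 1 sign under every one of these was held by 13 lists, 4 above and 9 below 0. Above 0 they were smooth muscle, pacemaker cells, enteric neurons and pericytes. Below 0 they were adipocytes, red cells, mast cells, pancreatic acinar genes, Paneth cells, goblet cells, gluconeogenesis, UDP-glucuronosyltransferases and carboxylesterases. Mast cells and UDP-glucuronosyltransferases, with 5 genes tested each, had 0 at an unadjusted p under 0.05 by limma. Mast cell deviations were −1.22, 0.84 and −1.18 in the antibiotics libraries and 0.70, −0.23 and 2.75 in wild type. In 6 of the 13 the library medians of the groups did not overlap, namely smooth muscle, pacemaker cells, pericytes, pancreatic acinar genes, gluconeogenesis and carboxylesterases. Of 6 pancreatic acinar genes tested, 1 had an unadjusted p under 0.05 by limma, against 22.2% of all genes, and 2 were above 0 under both allowances. The 3 pacemaker genes overlapped between groups with length allowed for, with antibiotics library 3 at 0.18 and wild-type library 1 at 0.60. B cells and CYP family 4 had medians of 0.86 and 0.69 that turned to −0.15 and −0.36 at a mean of at least 10, and to −0.03 and −0.26 without wild-type library 1. In 16 lists, the library medians of the 2 groups did not overlap before or after the length correction, 4 higher and 12 lower. The 4 were smooth muscle, stromal niche signals, pericytes and the circadian clock, and the 12 included mitosis, fatty acid oxidation, gluconeogenesis, both kinds of ribosome, the respiratory chain and carboxylesterases. Medians over all genes tested did not overlap either. After the correction these were 0.06, 0.05 and 0.10 in the antibiotics libraries and 0.01, −0.03 and −0.12 in wild type. The corrected median log2 fold change of circadian clock genes was 0.03, below the 0.11 of all genes. For the respiratory chain, antibiotics library 1 and wild-type library 1 then stood close, at −0.07 and −0.05.

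**Figure D5:**
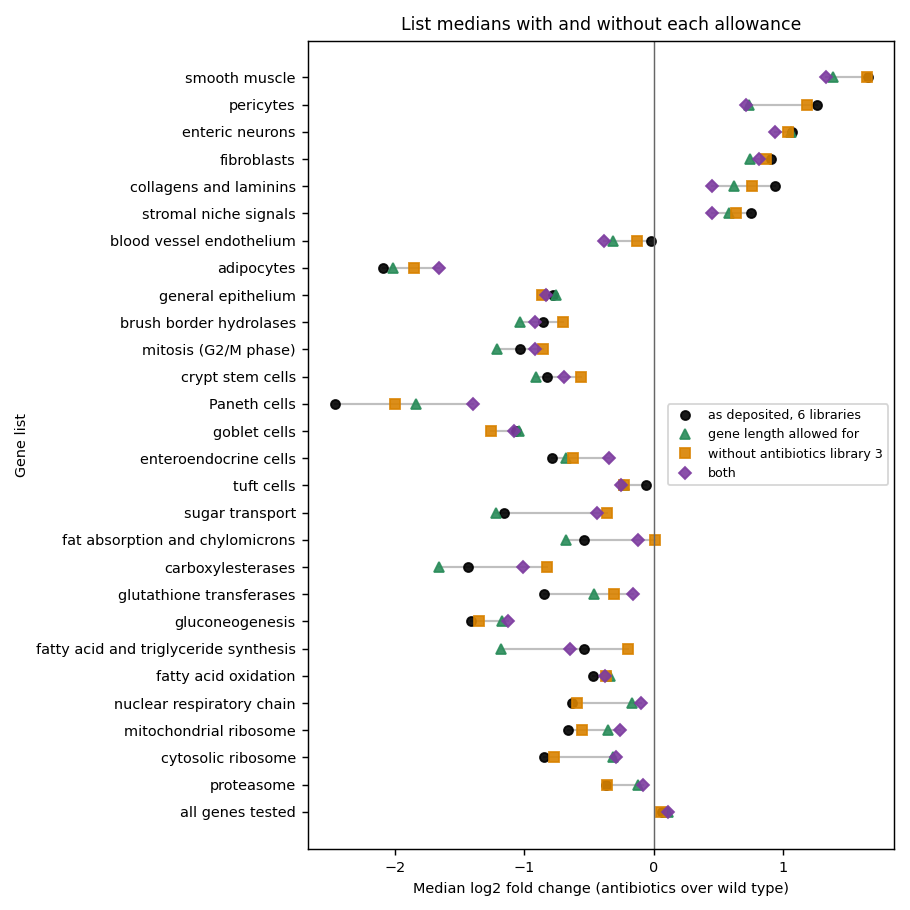
Median log2 fold change of antibiotics over wild type (x axis) for 27 gene lists and for all genes tested, with black circles as deposited, green triangles with gene length allowed for, orange squares without antibiotics library 3 and purple diamonds with both. Smooth muscle stays between 1.33 and 1.66, fat absorption moves from −0.54 to 0.01 without antibiotics library 3, and cytosolic ribosomal genes from −0.85 to −0.32 with length allowed for.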

How the data were processed

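Per the labels' protocols, libraries were made from poly(A) RNA of jejunum and read from both ends. HISAT2 2.0.5, DESeq2 1.20.0 and CASAVA 1.4 are named in the submitters' processing notes. Genome build, counting tool and strand setting are not given in the sources used here, so the reads of genes that overlap, on either strand, cannot be told apart. The deposited count columns hold the authors' normalized signal, which is whole reads divided by 1 factor per library (tested on the values, 100% whole within 0.01 reads). Reads were recovered from it. The main test was limma 3.58.1 in R 4.3.3 (trend, robust) on log2(normalized count + 1) with Benjamini-Hochberg adjustment over 19450 genes and a threshold of 0.05, in place of a count test, because the values are not counts. Fold changes on this scale understate those of weakly expressed genes. edgeR 4.0.16 and DESeq2 1.42.0 ran on recovered reads as alternatives.

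The length correction subtracted, in each library, a lowess trend (span 0.3) of deviations from the gene means on log2 gene length, using only genes with a mean of 50 or more. Genes were named where they had a symbol, a mean of at least 20 and passed both with and without this correction. In each list described, members past the threshold (up to 6) or, to make up 4, those with the smallest p were named. The 72 gene lists and the comparisons were chosen with earlier results of these data known. A count of 0 was not turned into a fold. Other alternatives were the filter, the pseudocount, 3 scalings, replicate number as a block, and each library left out in turn. Promoter sequences were matched by symbol to RefSeq (GRCr8) for 3 of 3 genes.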

Additional observations from a re-analysis of the deposited data

How the results depend on the processing

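The number of jejunal genes past the threshold (249, of which 148 higher and 101 lower) stayed within 1.5 times with no filter, a mean of at least 10, a pseudocount of 5, TMM scaling and edgeR. It was 160 (95 higher, 65 lower) with a pseudocount of 0.1, 65 (61 and 4) with scaling by library totals, 1868 (984 and 884) with DESeq2, and 24 (15 and 9) with the length correction. Allowing for length without antibiotics library 3 gave 1 (0 and 1). Scaling by totals outside mitochondrial genes, chosen after seeing the data, gave 268 higher genes. Leaving out single libraries gave 1 to 1902 genes, 0 to 1258 of them higher and 1 to 644 lower. The lowest counts came without antibiotics library 1 or 3 (1 each) and the highest without wild-type library 1, while wild-type library 3 left out gave 62. These fits had fewer samples, yet the count rose to 1902 without wild-type library 1, and why the counts differ was not tested. Same-numbered libraries were not paired in the labels, and their deviations correlated at 0.236, 0.280 and 0.087 over 11504 genes, each antibiotics library correlating best with its own number, a hint from the data only. With replicate number as a block, 1625 genes passed (897 higher, 728 lower). Medians of 31 of the 72 lists changed sign under at least 1 alternative, 19 of them under scaling by library totals, where the median of all genes was 0.50. The citric acid cycle (0.18) and the proteasome (0.13) there did so by more than their spread between libraries on both sides of 0. Of named genes under the alternatives, 398 values lost and 261 gained their call. The 249 genes called in the main fit kept their direction wherever they had a value. Genes that were not called could turn, such as Fabp6, whose rise rested on antibiotics library 3. Depth outside mitochondrial genes, lowest at 3510319 reads in wild-type library 3, limits what weakly expressed genes can show.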
